A study of Homo sapiens with 16 samples.

Results

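The response of THP-1 cells to bacterial lipopolysaccharide (LPS) was measured by RNA sequencing, with the LPS libraries set against untreated libraries of the same line. The members of the comparison are the 11976 genes, of 27311 listed, that reached at least 1 TPM (the share of a gene's transcripts, scaled to a fixed sum per library) in at least 2 of the 4 THP-1 libraries. They were taken by line and treatment from a series of 16 libraries that covers 4 immune cancer lines. THP-1 is a monocytic leukaemia line, and all 4 THP-1 libraries come from cells of the genotype dCas9-KRAB: they carry a Cas9 that cannot cut DNA, fused to the KRAB repressor. The labels name no guide RNA and do not say whether the line is a clone. The LPS group (2 libraries) received LPS of E. coli K12 at 1 µg/ml over 4 hours, and the untreated group (2 libraries) received no ligand. U937, a monocytic line labelled WT, serves as a comparison: 2 libraries after LPS at 200 ng/ml over 4 hours and 2 untreated libraries. No label says whether libraries of a group came from separate cultures, so p-values measure the spread between libraries, which may be technical. In bulk RNA, fewer responding cells and less RNA per cell cannot be told apart.

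LPS is a component of the outer membrane of Gram-negative bacteria. It is bound by the receptor TLR4 with its partner MD-2 (gene LY96) and is handed to them by CD14. The adaptor MyD88 passes the signal to kinases that release the transcription factor NF-kB from its inhibitors, and a second branch through the adaptor TRIF leads to type I interferon and the genes it induces. In monocytes and macrophages the response yields chemokines, cytokines, adhesion molecules and inhibitors that shut the pathway down again.

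The depth, in whole reads worked back from the TPM, was 8354687 and 3317689 reads in the LPS libraries, against 7162373 and 8432224 reads in the untreated libraries. The second LPS library is the shallowest of the 16. The log2 difference between libraries of a pair had an SD of 0.46 in the LPS pair (r = 0.979 across genes) and 0.34 in the untreated pair (r = 0.989). Pairs of 4 other groups had SDs of 0.33 to 0.38, while the LPS pair of U937 had 0.92 and the stimulated pair of the B cell line BJAB had 1.00. The test pools the spread per gene over all 8 groups, so a pair that lies apart widens the error of a THP-1 gene, while groups in which the gene is at 0 narrow it. A second fit on 14 libraries, without the first library of each of these last groups, is given beside the first. The groups were picked by this spread in the same data. A fit without the second library of each was not run. Of 28 monocytic markers, 27 were at 1 TPM or more in both groups, with a summed level of 8496 to 9351 TPM in LPS libraries and 9050 to 9461 TPM in untreated libraries. Of 19 T cell markers 10 were listed at 0 in all 4 libraries, of 18 B cell markers 8, and of 10 erythroid and megakaryocyte markers 7. NK cell markers at 1 TPM or more in both groups numbered 3 of 9. Their summed levels were 13 to 14.1 TPM (T), 23.7 to 29.1 TPM (B), 94.7 to 104 TPM (NK) and 1.06 to 3.72 TPM (erythroid) after LPS. The untreated libraries had 14.6 to 17.7, 24.8 to 25.8, 102 to 102 and 0.664 to 1.96 TPM for the same lists.

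LPS raised 17 genes and lowered 5 (limma on log2(TPM + 1), adjusted p under 0.05), which is 0.142% and 0.0418% of the genes tested. Some of these genes passed the filter only through the group in which they were high. Among them are CXCL10, CCL4 and IGFBP3, each under 1 TPM in both untreated libraries. Others are named with the low genes below. An unadjusted p under 0.05 was found for 436 genes. The genes that rose with a mean of at least 5 TPM after LPS numbered 9. Those described here are the chemokines CXCL10 and CCL4, the cytokine IL1B, the secreted proteins IGFBP3 and TNFAIP6, the transcription factor MSC, the adaptor-like TIFAB and the iron store FTH1. No gene that fell had a mean of 5 TPM in the untreated group. In the 14-library fit 42 genes rose (0.351%) and 4 fell (0.0334%), and 16 of the 22 genes passed in both fits. In a fit of the 4 THP-1 libraries alone 32 genes passed, all higher, and 8 of the 22 were among them: CXCL10, CCL4, IL1B, IGFBP3, TNFAIP6, TIFAB, MSC and FTH1. By voom on the recovered reads 5 genes passed, all higher, and all 5 were among the 22.

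CXCL10, which draws activated T cells and NK cells through the receptor CXCR3, was at 30.3 and 24.3 TPM (141 and 49 reads) after LPS and had no read in either untreated library. Against a floor of 3 reads in each untreated library it was at least 39.7-fold higher (adjusted p = 2.42e-05). CCL4, an attractant of monocytes and T cells, was at 16.1 and 17.2 TPM (41 and 19 reads) after LPS, also with no read in the untreated libraries, which makes it at least 13.3-fold higher (adjusted p = 0.000357). CCL4 has a near-identical copy, CCL4L1, listed at 0 in the same libraries, and reads that align to both are lost from uniquely aligned values. IL1B encodes the precursor of interleukin 1 beta, the cytokine that inflammasomes release. It stood at 69.2 and 37.4 TPM after LPS, against 3.60 and 6.37 TPM untreated, and its log2 change was 3.16 ± 0.37 (adjusted p = 0.00282). Here and below, ± is the SE of the limma fit. It rests on the spread pooled over all 16 libraries, not on that of the THP-1 libraries alone. The first LPS library was the higher for both CXCL10 and IL1B, and for all 3 genes the groups were apart.

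IGFBP3 binds insulin-like growth factors. It was at 9.35 and 6.42 TPM after LPS, against 0.228 and 0 TPM untreated (log2 change 2.98 ± 0.17, adjusted p = 1.33e-05), or 47 and 14 reads against 1 and 0 reads. TNFAIP6 encodes TSG-6, a hyaluronan-binding protein secreted at sites of inflammation. It was at 17.5 and 12.3 TPM after LPS and at 2.10 and 0.362 TPM untreated (2.93 ± 0.31, adjusted p = 0.00139). For IGFBP3 and TNFAIP6 both LPS libraries lay above both untreated ones.

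MSC (musculin), a basic helix-loop-helix repressor, was at 53.4 and 41.9 TPM after LPS and at 14.7 and 15.9 TPM untreated (log2 change 1.57 ± 0.17, adjusted p = 0.00191). TIFAB, a relative of the TRAF-binding adaptor TIFA, was at 28.6 and 21.8 TPM after LPS and at 6.59 and 8.10 TPM untreated (1.64 ± 0.26, adjusted p = 0.0346). FTH1 encodes the heavy chain of ferritin. At 2276 and 2188 TPM after LPS, against 1025 and 780 TPM untreated, it had the highest level of the genes that rose (1.32 ± 0.22, adjusted p = 0.035). FTH1 has many processed copies. One of them, FTH1P3, was at 115 and 94.8 TPM after LPS and at 49.6 and 38.9 TPM untreated (adjusted p = 0.172), and reads of the copies may be split between them. CXCL10, CCL4 and IGFBP3 passed under all 18 alternatives tried and TNFAIP6 under 17, while MSC passed under 14, IL1B under 13, TIFAB under 10 and FTH1 under 6 (adjusted p 0.00289 to 0.273). FTH1 missed the threshold without any 1 of the 4 THP-1 libraries, TIFAB without the first LPS library or either untreated one, and IL1B without the first untreated library.

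The other 8 genes that rose were low in all 4 libraries: LRRC75B, the carboxypeptidase CPZ, the ETS factor FEV, the non-coding RNA TEX41, myoglobin (MB), the forkhead factor FOXE1, the RNA sensor TLR7 and POM121L2. Of these, all except CPZ and FOXE1 passed the filter through the LPS libraries alone, which by itself sets their groups apart. All 8 missed the threshold with the THP-1 libraries alone, and MB, FOXE1, TLR7 and POM121L2 also missed it in the 14-library fit. Of 17 alternatives, FEV passed under 14, CPZ under 13, TEX41 under 11, LRRC75B and FOXE1 under 8, MB under 7, POM121L2 under 6 and TLR7 under 5. CPZ and FEV had no read in U937, and their adjusted p of 0.00139 each was 0.00849 (CPZ) and 0.00937 (FEV) in the 14-library fit and 0.256 (CPZ) and 0.362 (FEV) in THP-1 alone. The 8 genes had 6 to 35 reads in an LPS library, against 0 to 14 reads in an untreated library. Those that fell were lower still after LPS. NOTUM, a secreted enzyme that inactivates Wnt proteins, was at 0.236 and 0 TPM after LPS and at 2.84 and 2.09 TPM untreated, or 2 and 0 reads against 21 and 18 reads (log2 change -1.63 ± 0.21, adjusted p = 0.00546). C1orf127 (6 and 0 reads, against 24 and 29), NAP1L3 (4 and 0, against 14 and 17) and FAM205C (8 and 2, against 15 and 18) had the same order. The small nucleolar RNA SNORD124 had no read after LPS and 1 read in each untreated library, so its call (adjusted p = 2.42e-05) rests on 2 reads. NOTUM, C1orf127, NAP1L3 and SNORD124 passed the filter through the untreated libraries alone. None of the 5 passed with the THP-1 libraries alone, where SNORD124 had an adjusted p of 0.124 and NOTUM 0.275, and NAP1L3 and FAM205C also missed the threshold in the 14-library fit. The second LPS library, with the fewest reads, gave the lowest count for each of the 5 except SNORD124.

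**Figure D1:**
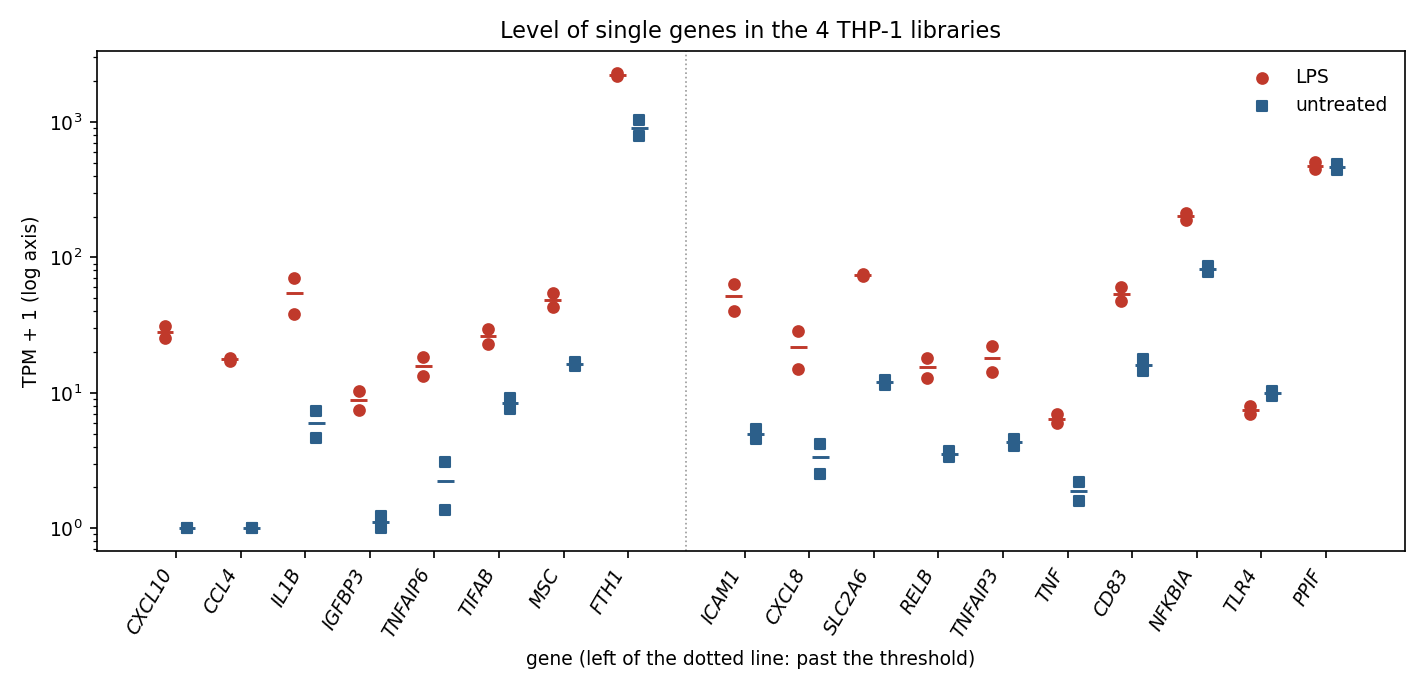
Level of 18 genes in the 4 THP-1 libraries, as TPM + 1 on a log axis. Circles are the LPS libraries, squares the untreated libraries and short bars the group means. The 8 genes left of the dotted line passed the threshold. For all of them both circles lie above both squares, as they do for ICAM1, SLC2A6 and NFKBIA, which did not pass, while PPIF overlaps and both TLR4 circles lie below its squares.

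The receptor complex and its adaptors were compared next. None of 24 tested members of the TLR4 pathway passed, and the median log2 change was -0.16, against -0.08 over all genes tested. Members with both LPS libraries above both untreated ones numbered 3 (12.7% of all genes) and members with both below numbered 6 (25.2% of all genes). TLR4 was at 5.97 and 6.99 TPM after LPS and at 8.50 and 9.28 TPM untreated (log2 change -0.40 ± 0.37). CD14 was at 4.49 and 8.68 TPM after LPS and at 6.31 and 5.42 TPM untreated. LY96 had 1 and 2 reads after LPS and 6 and 1 reads untreated, so its level can hardly be read at this depth. The adaptor MYD88 was at 52.5 and 44.9 TPM after LPS and at 48.1 and 62.5 TPM untreated, with overlapping groups. TRAF3, an adaptor that also serves the interferon branch, was at 19.3 and 18.2 TPM after LPS, against 8.94 and 11 TPM untreated (log2 change 0.85 ± 0.41, adjusted p = 1, and 0.0542 in the 14-library fit). LBP and TICAM2 were listed at 0 in all 4 libraries. Of 16 other pattern receptors and inflammasome members, TLR7 rose and none fell, 2 lay above and 6 below (12.7% and 25.2% of all genes). The TLR7 call was lost in the 14-library fit (adjusted p = 0.112), where 0 members of the list passed, and in THP-1 alone (0.792). NLRP3, the sensor whose inflammasome matures interleukin 1 beta, was at 35.2 and 28.6 TPM after LPS and at 44.1 and 45.6 TPM untreated (log2 change -0.49 ± 0.57).

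Of 15 NF-kB subunits, inhibitors and kinases, 0 passed by limma in the 16-library fit. Both LPS libraries lay above both untreated ones for 8 of the 15 and below for 1 (IKBKG), against 12.7% and 25.2% of all genes, with a median log2 change of 0.43. BCL3 passed the filter through the LPS libraries alone, and of the other 14 members 7 lay above and 1 below. In the 14-library fit 4 rose: NFKBIA, RELB, NFKB1 and BCL3. NFKBIA encodes the inhibitor that holds NF-kB in the cytoplasm and is itself an NF-kB target. It stood at 213 and 187 TPM after LPS, against 85.5 and 77.3 TPM untreated (log2 change 1.28 ± 0.26, adjusted p = 0.119, and 0.000896 in the 14-library fit). RELB, a subunit of the non-canonical branch, was at 17.0 and 11.9 TPM after LPS and at 2.37 and 2.72 TPM untreated (2.11 ± 0.67, adjusted p = 0.574 and 0.00175). NFKB1, the p105 precursor of subunit p50, was at 19.1 and 17.7 TPM after LPS and at 7.78 and 5.09 TPM untreated (1.41 ± 0.33, adjusted p = 0.204 and 0.00963). BCL3, a nuclear co-regulator of p50, was at 3.23 and 5.82 TPM after LPS and at 0.482 and 0.968 TPM untreated (1.65 ± 0.36, adjusted p = 0.156 and 0.0429). The subunits RELA and REL overlapped: RELA was at 50.3 and 61.1 TPM after LPS and at 51.1 and 54.6 TPM untreated, and the kinase genes IKBKB, IKBKE and CHUK overlapped as well. The 8 that lay above were NFKB1, NFKB2 and RELB among the subunits, and NFKBIA, NFKBIE, NFKBIZ, NFKBID and BCL3 among the inhibitors and co-regulators, while the inhibitor NFKBIB overlapped.

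Among NF-kB feedback and target genes, 0 of 21 tested members passed in the 16-library fit, 15 had both LPS libraries above both untreated ones, 1 had both below (TNFAIP8), against 12.7% and 25.2% of all genes, and the median log2 change was 0.71. In the 14-library fit 5 rose. ICAM1, an adhesion molecule for leukocyte integrins, had the largest change of the list, with 62.3 and 39.0 TPM after LPS and 4.43 and 3.57 TPM untreated (3.34 ± 0.69, adjusted p = 0.124 and 0.000242). CD83, a marker of activated antigen-presenting cells, was at 59.5 and 46.6 TPM after LPS and at 13.4 and 16.7 TPM untreated (1.75 ± 0.44, adjusted p = 0.268 and 0.000896). TNFAIP3 encodes A20, a ubiquitin-editing enzyme that damps NF-kB signalling. It was at 21.2 and 13.2 TPM after LPS and at 3.04 and 3.59 TPM untreated (2.05 ± 0.61, adjusted p = 0.489 and 0.00531). SOD2, the mitochondrial superoxide dismutase, was at 35.0 and 23.8 TPM after LPS and at 9.18 and 11.7 TPM untreated (1.39 ± 0.27, adjusted p = 0.0838 and 0.00963). The proteoglycan SDC4 was at 52.6 and 40.2 TPM after LPS and at 18.6 and 16.8 TPM untreated (1.33, adjusted p = 0.56 and 0.0345). The kinase RIPK2 and the adaptor TIFA overlapped between groups.

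Promoters were read for genes of these lists, since a kappaB motif is where NF-kB binds DNA. The windows run from 250 bases before to 50 bases after the transcription start (RefSeq, GRCh38.p14), on the strand of the gene, and capitals mark matches to the kappaB consensus on either strand. The CXCL10 window is chr4:76023448-76023747 (- strand), that of TNFAIP3 is chr6:137867009-137867308 (+), that of NFKBIA is chr14:35404700-35404999 (-) and that of NFKB1 is chr4:102501109-102501408 (+). They are shown because each gene lay apart after LPS and each window holds a match.
CXCL10: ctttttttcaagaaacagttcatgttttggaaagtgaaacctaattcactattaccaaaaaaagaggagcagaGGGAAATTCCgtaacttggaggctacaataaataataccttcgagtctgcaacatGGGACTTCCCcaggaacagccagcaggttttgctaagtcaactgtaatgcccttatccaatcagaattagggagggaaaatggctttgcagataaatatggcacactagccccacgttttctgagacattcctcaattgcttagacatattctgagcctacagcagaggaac
TNFAIP3: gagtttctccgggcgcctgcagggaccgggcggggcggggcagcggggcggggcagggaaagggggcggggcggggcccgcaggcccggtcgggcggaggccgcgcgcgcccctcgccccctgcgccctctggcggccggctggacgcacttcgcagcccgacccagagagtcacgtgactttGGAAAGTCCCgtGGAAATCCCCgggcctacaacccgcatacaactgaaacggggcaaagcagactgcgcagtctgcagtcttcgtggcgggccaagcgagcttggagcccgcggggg
NFKBIA: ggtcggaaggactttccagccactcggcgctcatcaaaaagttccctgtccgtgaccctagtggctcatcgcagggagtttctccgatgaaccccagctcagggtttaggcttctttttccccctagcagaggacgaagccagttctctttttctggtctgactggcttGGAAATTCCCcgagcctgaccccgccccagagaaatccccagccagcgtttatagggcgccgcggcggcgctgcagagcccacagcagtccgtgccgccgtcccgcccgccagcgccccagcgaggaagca
NFKB1: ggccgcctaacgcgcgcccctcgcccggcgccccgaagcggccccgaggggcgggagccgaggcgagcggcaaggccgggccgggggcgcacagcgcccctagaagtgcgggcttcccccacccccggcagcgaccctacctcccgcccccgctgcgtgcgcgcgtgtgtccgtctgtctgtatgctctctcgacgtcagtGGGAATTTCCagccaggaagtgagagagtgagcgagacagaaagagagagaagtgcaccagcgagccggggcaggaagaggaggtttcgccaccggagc
The matches begin 177 and 122 bases before the start in CXCL10, 67 and 55 bases before it in TNFAIP3, 81 in NFKBIA and 49 in NFKB1. A match is a run of letters and not a measured binding site.

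Over all promoter windows searched, 2075 of 35116 (5.91%) held a kappaB match. Windows of 1 chromosome and windows not 300 bases long were left out of the search. Each gene of the sets below was read by its first window. Of the 11976 genes tested 9066 had a window in the search, and 597 of these (6.59%) held a match. The genes with both LPS libraries above both untreated ones and a log2 change of at least 1 numbered 112 (0.935% of the genes tested). Of these, 72 had a window and 13 (18.1%) held a match: APLF, BCL3, CCL20, CXCL1, CXCL10, FOXE1, LTB, NFKB1, NFKBIA, NFKBIZ, OPTN, SDC4 and TNFAIP3. The 65 genes lower by as much (0.543%) had 34 windows, of which 3 (8.82%) held a match. Both sets hold genes that passed the filter through 1 group alone, and the filter itself sets the groups of such genes apart. BCL3, CCL20 and CXCL10 are among them, as is IL12A on the lower side. Shares without such genes were not counted. Motifs of other factors were searched on both strands as well. The AP-1 motif TGANTCA was in 11.1% of the windows of higher genes, 5.88% of lower genes and 4.3% of genes tested. The interferon-response motif (ISRE) was in 2.78%, 5.88% and 2.88% of the same windows, and the antioxidant-response motif TGACNNNGC in 15.3%, 20.6% and 15.6%. TGANTCA and TGACNNNGC can share bases, and matches of different motifs were counted even where they overlapped. No test of these shares was made. IL6, whose window also holds a kappaB match, was at 0 TPM in all 4 libraries.

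Of 13 tested chemokines CXCL10 and CCL4 rose, 9 had both LPS libraries above both untreated ones and 0 had both below, against 12.7% and 25.2% of all genes. The median log2 change was 1.57. CXCL10, CCL4 and CCL20 were under 1 TPM in both untreated libraries and so passed the filter through the LPS libraries alone, and over the other 10 members the median was 0.67. CXCL8 (interleukin 8), which draws neutrophils, was at 27.8 and 14.1 TPM after LPS and at 3.16 and 1.51 TPM untreated (log2 change 2.69 ± 0.68, adjusted p = 0.269, and 0.00175 in the 14-library fit). The monocyte attractant CCL2 was at 14.4 and 4.84 TPM after LPS and at 2.81 and 0 TPM untreated (2.28 ± 0.58, adjusted p = 0.269). CCL3, a relative of CCL4 with near-identical copies of its own, was at 9.53 and 10.6 TPM after LPS and at 4.14 and 0.648 TPM untreated (1.93 ± 0.52, adjusted p = 0.338). CCL20 had 7.77 and 2.86 TPM after LPS and 0.712 and 0.612 TPM untreated (1.81, adjusted p = 0.189). CXCL8, CCL2 and CCL20 were each lower in the second LPS library than in the first. CXCL11, which shares its receptor with CXCL10, was under the filter at 1.31 and 0.753 TPM after LPS and at 0 in both untreated libraries. CCL5 was at 39.9 and 49.7 TPM after LPS and at 33.8 and 36.6 TPM untreated (0.33). CXCL5, CXCL9, CCL7, CX3CL1 and the copies CCL3L1, CCL3L3 and CCL4L1 were listed at 0 in all 4 libraries.

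Of 27 cytokines and growth factors 13 were tested, IL1B rose, 9 lay above and 2 below (12.7% and 25.2% of all genes), and the median log2 change was 0.53. EBI3 passed the filter through the LPS libraries alone and IL12A through the untreated libraries alone. Of the other 11 members 8 lay above and 1 below, against 1414 and 2928 of 11776 genes filtered in the same way. EBI3, a subunit shared by interleukins 27 and 35, was at 11.5 and 5.30 TPM after LPS and at 0 and 0.454 TPM untreated (2.88 ± 0.56, adjusted p = 0.0838 and 0.0345). TNF was at 5.00 and 5.92 TPM after LPS and at 0.597 and 1.19 TPM untreated (1.79 ± 0.41, adjusted p = 0.187 and 0.00553). LTB, lymphotoxin beta, was at 4.03 and 4.64 TPM after LPS and at 0.923 and 1.55 TPM untreated (1.27 ± 0.26, adjusted p = 0.116 and 0.0629). IL12A lay below, at 0.544 and 0 TPM after LPS and 1.87 and 1.43 TPM untreated (-1.09, adjusted p = 0.222). IL6, IL10, IL27, CSF2, CSF3 and IFNB1 were listed at 0 in all 4 libraries, while IL1RN, the antagonist of the interleukin 1 receptor, was at 33.6 and 35.1 TPM after LPS and at 31.9 and 27.5 TPM untreated.

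The TPM of TNF and LTB understates them against other genes. TNF had 249 and 128 reads after LPS, more than the 141 and 49 reads of CXCL10, yet a TPM several times lower. The length implied by reads per TPM was 7.78 times that of the longest GENCODE 29 transcript for TNF and 5.15 times for LTB, on a scale where the median gene outside the region has a ratio of 1. For CXCL10 it was 1.03, for IL1B 0.918 and for NFKBIA 1.01. TNF and LTB lie in the MHC region of chromosome 6. Of 68 tested genes from HLA-F to HLA-DPB1, 63 (92.6%) had a ratio of at least 3 and their median was 6.74, against 73 of 11529 other genes (0.633%). HLA-B (6.25) and TAP1 (8.50) were among them. The ratio is the same in every library and so leaves the ratio between groups as it is, but it lowers these genes against the pseudocount of 1. With a pseudocount of 0.1 the log2 change of TNF was 2.55, and the ratio of its group means was 6.12. Why the deposited values imply such lengths was not tested.

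Of 35 tested interferon-stimulated genes 0 passed in the 16-library fit, 19 lay above and 4 below, against 12.7% and 25.2% of all genes, and the median log2 change was 0.29. OAS2, which senses double-stranded RNA, was at 9.12 and 7.04 TPM after LPS and at 3.25 and 3.13 TPM untreated (1.10 ± 0.33, adjusted p = 0.493). The transcription factor IRF9 was at 84.4 and 69.0 TPM after LPS and at 43.0 and 31.7 TPM untreated (1.03 ± 0.42). IFI6 was at 32.3 and 37.9 TPM after LPS and at 16 and 18.3 TPM untreated, and alone rose in the 14-library fit (0.99, adjusted p = 0.968 and 0.00963). IFIT1 (2.10 and 2.30 TPM, against 1.46 and 1.20) and ISG15 (70.3 and 78.8, against 64.3 and 58.1) were apart by less than 1 on the log2 scale.

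Among 18 immediate-early and AP-1 genes 1 rose and 0 fell, 9 lay above and 2 below (median 0.32), beside 12.7% and 25.2% of all genes. FOS (45.0 and 31.9 TPM after LPS, 31.8 and 33.8 TPM untreated) and MYC (169 and 181, against 197 and 164) overlapped, and JUNB lay apart at 33.4 and 45.8 TPM after LPS and 16.8 and 30.1 TPM untreated. Of 17 MAP kinase and cytokine feedback genes 0 passed, 8 lay above and 0 below (median 0.12), beside the same shares of all genes. The phosphatase DUSP2 was at 21.3 and 25.4 TPM after LPS and at 6.58 and 8.26 TPM untreated (1.53 ± 0.72, adjusted p = 1 and 0.038), and DUSP1 at 6.46 and 3.87 TPM after LPS and at 0.592 and 2.29 TPM untreated (1.4 ± 0.39).

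Enzymes and transporters of activated macrophages had a median of 0.22 over 20 tested members, with FTH1 past the threshold, 9 above and 4 below (12.7% and 25.2% of all genes). The hexose transporter SLC2A6 was at 72.0 and 73.9 TPM after LPS and at 11.4 and 10.5 TPM untreated (2.63 ± 0.57, adjusted p = 0.154 and 0.00033). HMOX1, which degrades haem, was at 64.8 and 41.7 TPM after LPS and at 12.4 and 17.3 TPM untreated (1.76 ± 0.60, adjusted p = 0.706 and 0.00706). SQSTM1, the autophagy receptor p62, was at 313 and 291 TPM after LPS and at 188 and 200 TPM untreated (0.64, adjusted p = 1 and 0.049). FTH1, SLC2A6, HMOX1 and SQSTM1 are the 4 that rose in the 14-library fit. GCLM, a subunit of the first enzyme of glutathione synthesis, is outside the lists and was picked after its values were seen. It was at 24.0 and 30.6 TPM after LPS and at 6.88 and 6.53 TPM untreated (1.87 ± 0.41, adjusted p = 0.161 and 0.00481). The glucose transporter SLC2A1 lay below, at 217 and 185 TPM after LPS and 245 and 275 TPM untreated (-0.38), as did hexokinase HK2 (8.78 and 9.61, against 13.1 and 14.4). The metallothioneins MT1X and MT2A overlapped.

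Of 17 matrix, protease and adhesion genes IGFBP3 and TNFAIP6 rose, 10 lay above and 2 below (median 0.18), against 12.7% and 25.2% of all genes. IGFBP3 passed the filter through the LPS libraries alone, and of the other 16 members 9 lay above and 2 below. CD44, a hyaluronan receptor, was at 20.1 and 10.2 TPM after LPS and at 4.31 and 3.55 TPM untreated (1.65 ± 0.45, adjusted p = 0.338 and 0.0345). SERPINB2, an inhibitor of plasminogen activators, lay below, at 11 and 5.57 TPM after LPS and 20.5 and 19.4 TPM untreated (-1.24 ± 0.37, adjusted p = 0.48). Of 14 surface molecules of antigen presentation 0 passed, 5 lay above and 1 below (median 0.07), against the same shares of all genes. The costimulatory receptor CD40 was at 41.4 and 27.5 TPM after LPS and at 14.3 and 17.8 TPM untreated (1.03 ± 0.35, adjusted p = 0.658).

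**Figure D2:**
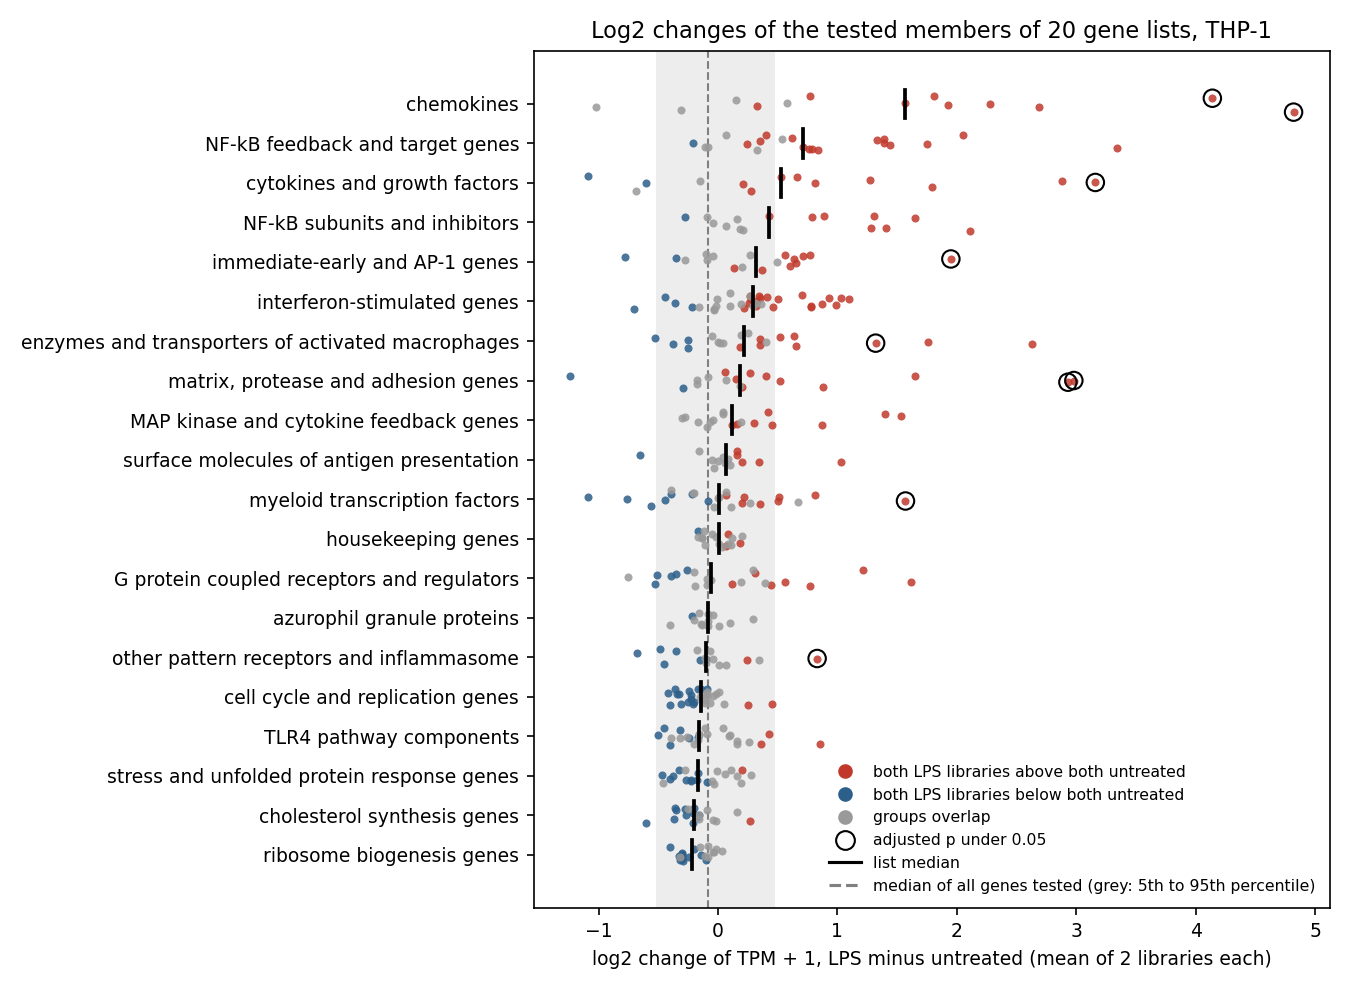
Log2 change of TPM + 1, LPS minus untreated, of each tested member of 20 gene lists, ordered by list median. Red points have both LPS libraries above both untreated ones, blue points both below, grey points overlap, rings mark genes past the threshold, black bars are list medians, the dashed line is the median of all genes (-0.08) and the grey band spans their 5th to 95th percentile. Chemokines (1.57) head the order and ribosome biogenesis genes (-0.22) end it. Without the 3 chemokines that passed the filter through LPS libraries alone, the chemokine median is 0.67. That is under the 0.71 of NF-kB feedback and target genes.

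Genes of myeloid differentiation were compared next. Of 25 myeloid transcription factors MSC rose, 8 lay above and 7 below (median 0.01). Over all genes 12.7% lay above and 25.2% below, so the share of members below is near that of all genes. SPI1 (PU.1) and CEBPA overlapped, at 37.2 and 53.5 TPM (SPI1) and 67.2 and 80.5 TPM (CEBPA) after LPS and at 40 and 33.9 TPM (SPI1) and 66.6 and 69.7 TPM (CEBPA) untreated. IRF8, a factor of monocyte development, lay below, at 871 and 742 TPM after LPS and 1223 and 1141 TPM untreated (-0.56 ± 0.70, adjusted p = 1). NFE2, a factor of erythroid and megakaryocyte genes, lay below as well, at 12.1 and 6.77 TPM after LPS and 21.4 and 19.6 TPM untreated (-1.09 ± 0.30, adjusted p = 0.383). Azurophil granule genes overlapped between groups for 12 of 13, against 7434 of all 11976 genes tested. ELANE, neutrophil elastase, was the exception in this list, at 1267 and 1502 TPM after LPS and at 1655 and 1553 TPM untreated (-0.22). Of 21 G protein coupled receptors and their regulators 0 passed, 7 lay above and 5 below (median -0.06), and here too the share below is near the 25.2% of all genes. GPR84, a receptor of medium-chain fatty acids, was at 40.2 and 38.0 TPM after LPS and at 16.7 and 16.1 TPM untreated (1.21 ± 0.29, adjusted p = 0.222 and 0.0636). C3AR1, the receptor of complement C3a, was at 5.81 and 9.04 TPM after LPS and at 2.16 and 1.29 TPM untreated (1.62 ± 0.48).

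None of the listed genes of cell cycle, ribosome biogenesis, cholesterol synthesis and stress response passed the threshold. Both LPS libraries lay below both untreated ones for 15 of 28 cell cycle and replication genes (median -0.14), 13 of 22 ribosome biogenesis genes (-0.22), 11 of 19 cholesterol synthesis genes (-0.20) and 10 of 21 stress and unfolded protein response genes (-0.17), against 25.2% of all genes. The replicative helicase subunit MCM4 was at 196 and 173 TPM after LPS and at 233 and 240 TPM untreated (-0.36 ± 0.54). NOP56, a core protein of box C/D small nucleolar RNPs, was at 129 and 133 TPM after LPS and at 177 and 169 TPM untreated (-0.40 ± 0.21, adjusted p = 1). Housekeeping genes had a median of 0.01, and 13 of 17 overlapped, against 7434 of all 11976 genes tested. TPM shares a fixed sum, and the median log2 change of all genes was -0.08 as deposited and -0.02 after median-of-ratios scaling or quantile normalization, so shifts of this size are read against it. Without the second, shallow LPS library the medians of these 4 lists were -0.05, -0.10, -0.09 and -0.05 in the same order, and without the first they were -0.33, -0.25, -0.33 and -0.23. Over all genes tested the first LPS library lay above the second by a median log2 difference of 0.17. The median of all genes thus moves with the library left out, and -0.08 is not the measure for these values. The 13 respiratory chain genes encoded in mitochondria were not found under the names used here. PPIF, cyclophilin D of the mitochondrial permeability pore, was at 502 and 445 TPM after LPS and at 442 and 486 TPM untreated (0.03 ± 0.35).

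Outside the lists, the largest changes with separate groups and a mean of at least 5 TPM in the higher group included IL4I1, NENF and TAF10 upward. IL4I1, a secreted amino acid oxidase, was at 19.8 and 14.5 TPM after LPS and at 1.92 and 1.14 TPM untreated (2.85 ± 0.55, adjusted p = 0.0838 and 0.000234). NENF (neudesin) was at 49.9 and 67.4 TPM after LPS and at 5.68 and 15.5 TPM untreated (2.49 ± 0.82, adjusted p = 0.614). TAF10, a subunit of the general factor TFIID, was at 58.6 and 84.9 TPM after LPS and at 9.54 and 18.9 TPM untreated (2.30 ± 0.84, adjusted p = 0.831). In the 14-library fit the adjusted p was 0.0716 for NENF and 0.337 for TAF10. With the THP-1 libraries alone it was 0.0452 for NENF and 0.0319 for TAF10. Downward the largest were smaller. LRRC20 was at 2.24 and 0.665 TPM after LPS and at 4.96 and 5.90 TPM untreated (-1.47 ± 0.43, adjusted p = 0.464). The transcription factor OSR2 was at 9.23 and 10.5 TPM after LPS and at 20.7 and 24.4 TPM untreated (-1.11 ± 0.38, adjusted p = 0.667). The fatty acid elongase ELOVL3 was at 10.5 and 15.3 TPM after LPS and at 25.6 and 25.1 TPM untreated (-0.94 ± 0.31). For AKTIP (6.04 and 0.961 TPM, against 6.68 and 6.16), MOAP1 (17.3 and 4.49, against 17.5 and 21.4) and ZNF589 (14.9 and 4.84, against 20.6 and 17.9) the second, shallow LPS library alone was far below the untreated ones.

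**Figure D3:**
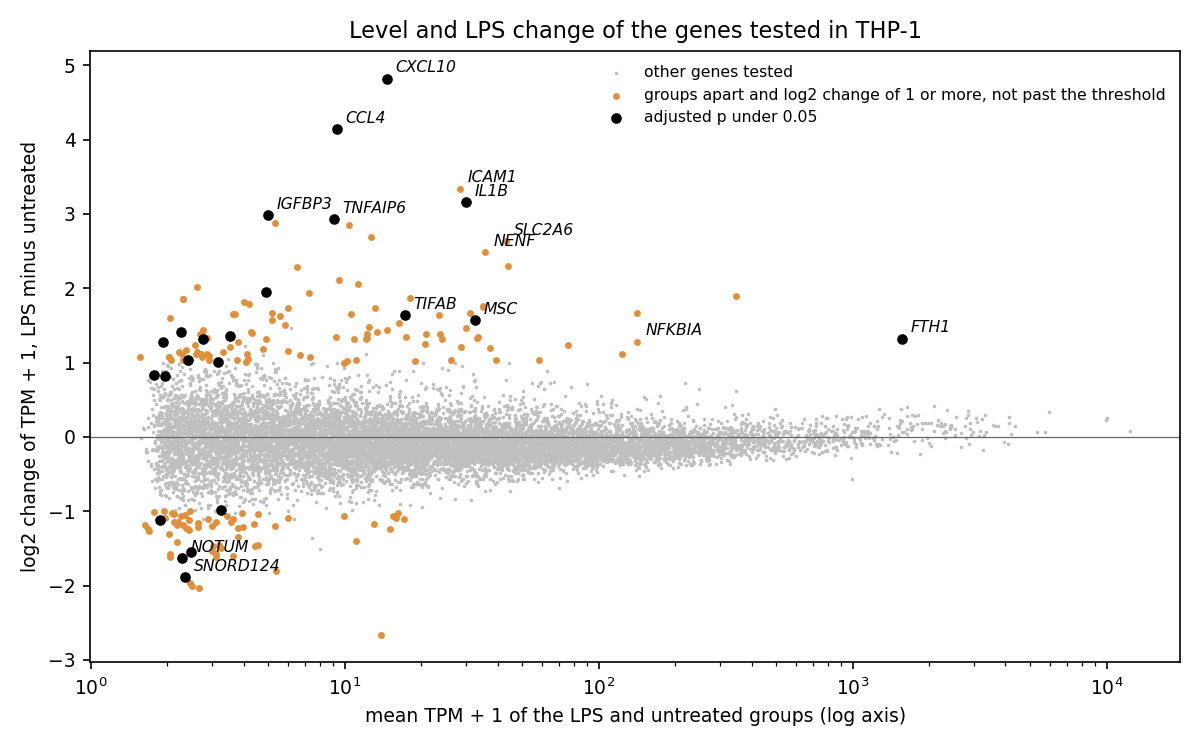
Mean TPM + 1 of both groups (log axis) and log2 change, LPS minus untreated, of the 11976 genes tested. Black points passed the threshold, orange points had separate groups and a log2 change of 1 or more in size without passing, and grey points are the rest. The 5 genes that fell all lie at the low end of the level axis, and FTH1 is the gene past the threshold with the highest level.

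The response was set against that of U937, which differs in LPS dose and genotype as well, so that line, dose and genotype cannot be told apart. A test of the difference (THP-1 response minus U937 response) called 2 genes, 0.0167% of those tested, with 754 at an unadjusted p under 0.05. IGFBP3 differed by 2.98 ± 0.24 (adjusted p = 0.000606). U937 had no read of it in any of 4 libraries, so the value is the THP-1 change itself and depends on the pseudocount. SNORD124 differed by -1.89 (adjusted p = 0.00123) on the 2 reads named above. Both genes passed the filter through 1 THP-1 group alone. Of the 112 genes with separate groups and a log2 change of at least 1 in THP-1, 21 also lay above in U937 and 27 lay below, while over all genes tested 1435 lay above and 4070 below there. The 112 include genes that passed the filter through the THP-1 LPS libraries alone, such as CXCL10 and IGFBP3. No count was made without such genes. The first U937 LPS library stands apart from the second, and the median log2 change of all genes in U937 was -0.34.

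CXCL10 in U937 was at 46.1 and 44.3 TPM after LPS and at 0 and 1.48 TPM untreated, with a THP-1 minus U937 difference near 0 (difference -0.06 ± 0.45, adjusted p = 0.96). CCL4 was at 53.2 and 25.3 TPM after LPS in U937 and at 0 in both untreated libraries. NFKBIA was at 175 and 174 TPM after LPS and at 57.3 and 65.6 TPM untreated (difference -0.21 ± 0.37). IL1B reached 10.3 and 9.22 TPM after LPS in U937, against 2.85 and 5.82 TPM untreated (difference in log2 change 2.09 ± 0.53, adjusted p = 0.437). MSC, at 0.137 TPM or less in every U937 library, differed by 1.48 ± 0.24 (adjusted p = 0.0918). ICAM1 was at 24.8 and 116 TPM after LPS in U937 and at 52.2 and 47.8 TPM untreated, so the LPS libraries there lay on either side of the untreated ones (difference 3.23 ± 0.98, adjusted p = 0.638). SLC2A6 was at 0.744 and 4.32 TPM after LPS in U937 and at 1.68 and 3.30 TPM untreated (difference 2.79 ± 0.81, adjusted p = 0.618).

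Several genes lay above in THP-1 and below in U937, each with both libraries. COTL1, an actin-binding protein picked after its values were seen, was at 493 and 585 TPM after LPS and at 108 and 194 TPM untreated in THP-1, and at 66.3 and 62.9 TPM after LPS and 274 and 264 TPM untreated in U937 (difference 3.93 ± 0.64, adjusted p = 0.0918). RAC1, a small GTPase picked in the same way, was at 187 and 240 TPM after LPS and at 59.6 and 74.2 TPM untreated in THP-1, and at 75.4 and 54.4 TPM after LPS and 150 and 124 TPM untreated in U937 (difference 2.74 ± 0.45, adjusted p = 0.0918). NENF was at 15.1 and 9.5 TPM after LPS and at 72.6 and 61.1 TPM untreated in U937 (difference 4.87 ± 1.16, adjusted p = 0.384). DUSP1 was at 1.47 and 1.11 TPM after LPS and at 5.54 and 7.57 TPM untreated in U937 (difference 3.11 ± 0.56, adjusted p = 0.11). None of these differences passed.

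**Figure D4:**
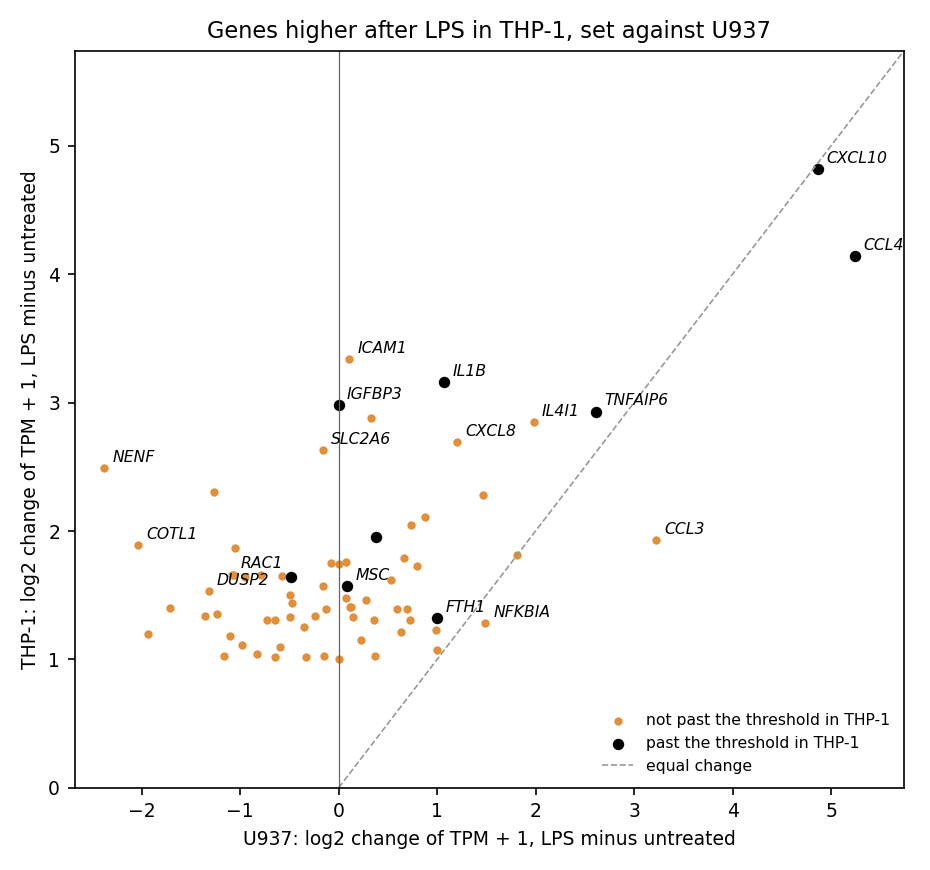
Log2 change of TPM + 1, LPS minus untreated, in THP-1 (vertical) and U937 (horizontal) for the 72 genes with separate THP-1 groups, a THP-1 change of at least 1 and a mean of at least 5 TPM after LPS. Black points passed the threshold in THP-1 and the dashed line marks equal change. CXCL10, CCL4 and TNFAIP6 are high on both axes, ICAM1, IGFBP3 and SLC2A6 lie near 0 in U937, and COTL1, RAC1 and NENF lie left of 0.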

How the data were processed

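Libraries were made by SmartSeq2 with an oligo-dT primer, per the labels' protocols. The authors aligned reads with TopHat2 to hg19, per the submitters' processing notes. Of the counting program, its annotation and any version, the sources used here say nothing. The deposited values are TPM of uniquely aligned reads for 27311 genes, 1 file per library, each summing to 1000000. Whole reads were recovered from the TPM steps for 17860 of 19092 genes above 0, at a tolerance of 0.0001, and gave 3317689 to 8432224 reads per library. Floors of 3 reads cover counting error only, and PCR reads are not independent molecules.

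The 11976 genes with at least 1 TPM in at least 2 THP-1 libraries were tested, and 10887 of them reached 1 TPM in all 4. A gene absent from untreated cells could enter through the LPS libraries alone. Of those tested, 106 were under 1 TPM in both untreated libraries and 94 in both LPS libraries. Among list members the 106 include IFIT5, TLR7, PTGS2 and PTAFR, beside those named with their lists. Without them, 18 of 34 interferon-stimulated genes and 1 of 15 other pattern receptors lay above. So did 8 of 19 macrophage enzymes and transporters and 6 of 20 G protein coupled receptors and regulators. Those below stayed at 4, 6, 4 and 5. The test was limma 3.58.1 (R 4.3.3) on log2(TPM + 1), over all 16 libraries and 8 groups, a trend of the spread with level, two-sided tests and Benjamini-Hochberg adjustment at 0.05, and was tested on simulated data. With a pseudocount of 1 the change of low genes is understated. Named genes were all genes past the threshold, the 15 largest changes each way with separate groups and a mean of at least 5 TPM, up to 5 members per list, 10 set immune genes and PPIF. Genes named beyond this rule were chosen after their values were seen. The members and the 21 lists were chosen with earlier results of these data known. Alternatives were 2 pseudocounts, 3 filters, 2 scalings, no trend, a replicate block, other sets of libraries, array weights, voom on recovered reads and each library left out. Promoters are RefSeq windows on GRCh38.p14, matched by symbol, and lengths are those of GENCODE 29 transcripts. Some genes the rule would name are not reported here.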

Additional observations from a re-analysis of the deposited data

Results flagged for a closer look

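The LPS response of THP-1 minus that of U937 passed a test of the difference itself for 2 genes. IGFBP3 differed by 2.98 on the log2 scale, with 47 and 14 reads after LPS and 1 and 0 reads untreated in THP-1 and no read in U937. SNORD124 differed by -1.89, with no read after LPS and 1 read in each untreated library in THP-1 and no read in U937. IGFBP3 passed the filter through the THP-1 LPS libraries alone and SNORD124 through the untreated ones alone. For both genes the difference is the THP-1 change itself.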

How the results depend on the processing

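The number of THP-1 genes past the threshold (22) was 7 with a pseudocount of 0.1, 42 with 5, 57 with no filter on low values, 9 at a minimum of 5 TPM, 41 with median-of-ratios scaling, 58 with quantile normalization and 12 with no trend. It was 10 with the replicate block, 4 with THP-1 and U937 libraries alone, 46 in the 14-library fit, 43 with array weights and 5 by voom on recovered reads. Leaving out each library gave 14 to 94 genes, the 94 without the first LPS library (26 higher, 68 lower). Members of the lists past the threshold (9) were 4 with a pseudocount of 0.1, 16 and 24 under the same scalings, 5 with the block, 19 in THP-1 alone, 3 with THP-1 and U937 alone, 26 in the 14-library fit, 22 with weights, 5 by voom, and 6 to 9 with a library left out. The difference to U937 (2 genes) gave 9 with a pseudocount of 5, 9 unfiltered, 1 at a minimum of 5 TPM, 7 with the filter over 16 libraries, 4 after quantile normalization, 1 with no trend, 1 with the block, 4 in the 14-library fit, and 0 with THP-1 and U937 alone, array weights or voom. Leaving out libraries gave 2 to 2634, the 2634 without the second U937 LPS library. Genes with separate groups and a log2 change of at least 1 in size (177) were 379 with a pseudocount of 0.1, 47 with 5 and 76 at a minimum of 5 TPM. The causes were not tested.

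The deviations of same-numbered THP-1 libraries from their group means correlated at 0.023. This value cannot settle whether the libraries were made in pairs. Over 50 of the named genes, 699 values kept their side of the threshold, 47 newly passed, 137 no longer passed and none reversed. Other named genes, such as CD83 and NFKB1, are not in these counts. Of the 22 genes, 8 were kept with the block, and 20, 16, 11 and 14 without the first LPS, second LPS, first untreated and second untreated library. The second LPS library had the fewest reads, 3317689. An alternative chosen after seeing the data, list members at 1 TPM or more in a library of each group, is given with the lists it changes. The 14-library fit likewise rests on groups picked by their spread in these data.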
